A study of Homo sapiens with 4 samples.

Results

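The mitochondrial respiratory chain and ATP synthase are built from subunits of 2 genomes, and the nuclear subunits are described here in HCC1143, an established human line grown from a triple-negative breast tumour. The genes were chosen by symbol: names beginning with NDUFA, NDUFB, NDUFC, NDUFS, NDUFV, UQCR, COX4I, COX5, COX6, COX7, COX8 or ATP5, or one of SDHA, SDHB, SDHC and SDHD, without the NDUFAF assembly factors and without symbols ending in -AS1. That gave 84 of 18131 gene symbols, and each of the 84 was listed in every library. By known protein, 37 were subunits of complex I, 4 of complex II, 9 of complex III, 13 of complex IV and 17 of complex V, counting copies with their parent complex. Of these, UQCRHL is an intronless copy of UQCRH, ATP5EP2 a retrocopy of ATP5E and ATP5L2 a close relative of ATP5L. A further 4 genes, COX7A2L, NDUFA4L2, ATP5S and ATP5SL, matched by name and encode no structural subunit of these complexes. All 84 symbols had 1 locus in GENCODE release 29 on GRCh38, and 0 of these loci lay on the mitochondrial chromosome. The ATP synthase genes carry their older symbols, so that ATP5A1, ATP5B and ATP5G2 are the genes now called ATP5F1A, ATP5F1B and ATP5MC2.

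Oxidative phosphorylation couples the oxidation of NADH and succinate to ATP synthesis at the inner mitochondrial membrane. Complex I takes electrons from NADH and complex II from succinate. Complex III passes them to cytochrome c and complex IV to oxygen, and complex V uses the resulting proton gradient to make ATP. Complexes I, III, IV and V contain subunits read from mitochondrial DNA beside the nuclear ones, whereas complex II is wholly nuclear and also works in the citric acid cycle. Most nuclear subunits are imported as precursor proteins and placed by dedicated assembly factors.

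Cells attached to plates for 24 h before 1 nM paclitaxel, a taxane that stabilises microtubules, or its solvent DMSO was added. They were collected after a further 72 h or 24 h, giving 4 groups of HCC1143 cells (paclitaxel 72 h, DMSO 72 h, paclitaxel 24 h and DMSO 24 h) with 1 droplet single-cell library each. With 1 library a group no difference has a replicate check, no test across samples was made, and every statement below compares libraries. Values are counts of unique molecular identifiers (UMIs), deposited as raw counts per gene and cell. After barcodes with 20% or more of their UMIs from mitochondrially encoded (MT-) genes were left out, 520, 783, 776 and 1101 cells remained with 34850724, 49228982, 55502535 and 72024235 UMIs, in the order paclitaxel 72 h, DMSO 72 h, paclitaxel 24 h and DMSO 24 h. The epithelial markers EPCAM, KRT8, KRT18, KRT19, KRT5, KRT14 and CDH1 were all listed and summed to between 1909.7 and 3618 counts per 1000000 UMIs (CPM) in a library. Of 5 leukocyte, 5 fibroblast and 4 endothelial markers, 3, 1 and 3 were listed, with sums of 1.35 to 5.08, 10.0 to 13.9 and 2.25 to 10.9 CPM. Some barcodes occurred in 2 libraries, 4 in both 24 h libraries and 3 in both DMSO libraries, and without them the members' counts of calls given below were equal. The DMSO 72 h library stood apart in its ribosomal protein genes, which took 40.4% of its UMIs, against 28.6%, 32.8% and 27.7% in the paclitaxel 72 h, paclitaxel 24 h and DMSO 24 h libraries.

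Oxidative phosphorylation messages were most abundant in the DMSO cells at 24 h and least abundant in the DMSO cells at 72 h. The 84 genes together took 2.08% of all UMIs in the paclitaxel 72 h library and 1.72% in DMSO 72 h, and 2.20% in paclitaxel 24 h and 2.56% in DMSO 24 h. Exact 95% intervals, which cover counting error only, were 2.07% to 2.08%, 1.71% to 1.72%, 2.20% to 2.21% and 2.56% to 2.57% in that order, so no 2 intervals overlapped. Gene by gene, 47 of the 81 genes measured well enough to compare (at least 10 CPM on average) had their highest CPM in DMSO 24 h, and 61 had their lowest in DMSO 72 h. When ribosomal protein and MT- genes were taken out of the totals, the shares became 3.20% in paclitaxel 72 h, 3.24% in DMSO 72 h, 3.64% in paclitaxel 24 h and 3.95% in DMSO 24 h. On those totals both 72 h libraries lay below both 24 h libraries, and the lowest was paclitaxel 72 h in place of DMSO 72 h. In libraries of whole cells, fewer cells with a message and less message per cell cannot be told apart from these sums alone, so the cells were also examined singly at the end.

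**Figure D1:**
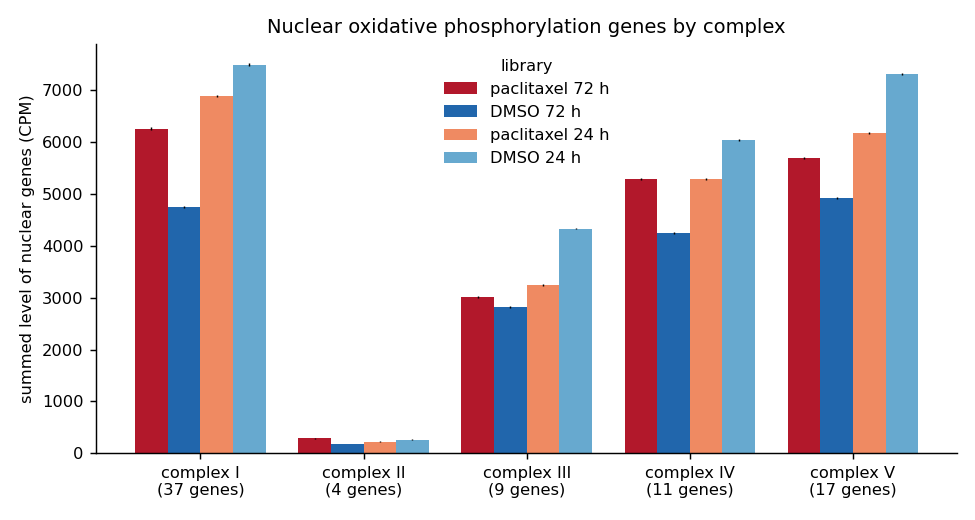
Summed CPM of the measured nuclear genes of each complex (vertical axis) in the 4 libraries, with exact 95% Poisson intervals as error bars. The tallest bar is DMSO 24 h for complexes I, III, IV and V and paclitaxel 72 h for complex II, and the shortest is DMSO 72 h throughout.

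In CPM, each complex shared the low level in DMSO 72 h, as the plot of sums by complex shows. The order of the 72 h libraries depends on the scaling for some complexes, as given below. Complex I, the NADH dehydrogenase, summed to 6249 CPM with paclitaxel and 4749 CPM with DMSO at 72 h, and 6885 CPM with paclitaxel and 7486 CPM with DMSO at 24 h. Complex II, succinate dehydrogenase, summed to 291 CPM with paclitaxel and 184 CPM with DMSO at 72 h, and 226 CPM with paclitaxel and 266 CPM with DMSO at 24 h. It was the only one of the 5 complexes with its highest sum in paclitaxel 72 h. Complex III, the cytochrome bc1 complex, summed to 3016 CPM with paclitaxel and 2815 CPM with DMSO at 72 h, and 3245 CPM with paclitaxel and 4329 CPM with DMSO at 24 h. Complex IV, cytochrome c oxidase, summed to 5283 CPM with paclitaxel and 4246 CPM with DMSO at 72 h, and 5281 CPM with paclitaxel and 6027 CPM with DMSO at 24 h. Complex V, the ATP synthase, summed to 5689.8 CPM with paclitaxel and 4913 CPM with DMSO at 72 h, and 6169 CPM with paclitaxel and 7311 CPM with DMSO at 24 h. For each of the 4 other complexes the highest sum was that of DMSO 24 h.

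Because a large ribosomal share lowers every other gene's CPM, single genes are given below as a relative log2 ratio. This is the log2 ratio of a gene's CPM in 2 libraries minus the median log2 ratio of all 8214 measured genes, those listed in every library with a mean of at least 10 CPM. The medians subtracted were 0.27 for paclitaxel over DMSO at 72 h, -0.13 for the same at 24 h, -0.28 for 72 h over 24 h in DMSO and 0.12 for 72 h over 24 h in paclitaxel. A gene is called higher or lower when it differs at least 1.5-fold on that scale and the exact 95% interval of its ratio of 2 Poisson counts excludes no difference. The intervals of 2 libraries cover counting error only, and for the 81 measured members their half-widths had medians of 0.036 to 0.048 on the log2 scale. COX6B2, COX8C and NDUFA4L2 were too low to measure: they lay between 0.847 and 1.66, 0.236 and 0.947, and 0.569 and 1.38 CPM. Each library enters 2 of the 4 comparisons, so these are not independent of each other.

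After 72 h, the succinate dehydrogenase subunits SDHD and SDHB and a few other subunits were higher with paclitaxel than with DMSO, while a subunit c gene of ATP synthase was lower. The calls were 4 of 81 members higher, SDHD, SDHB, NDUFAB1 and ATP5B, and 2 lower, UQCRHL and ATP5G2. Among all 8214 measured genes 10.9% were called higher and 7.67% lower, against 4.94% and 2.47% of the members. The members' median relative log2 ratio was 0.11, with quartiles of -0.20 and 0.32, beside 0 by construction for all genes. For the summed UMIs of each complex the relative log2 ratio was 0.13 for I, 0.39 for II, -0.17 for III, 0.046 for IV and -0.058 for V. On that scale complexes III and V were thus not lowest in DMSO 72 h. The split depends on the scaling: with no median subtracted, 24 members were called higher and 0 lower, beside 24.3% and 2.11% of all genes, and the 67 members with a higher CPM outnumbered the 14 with a lower one. Ribosomal protein genes had a median of -0.75 in the same comparison, with 64 of 82 called lower, and their part in these ratios was not tested.

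Succinate dehydrogenase binds FAD and iron-sulfur clusters in its matrix part and ubiquinone in its membrane part. SDHD, which encodes a membrane anchor, had 54.7 CPM with paclitaxel and 22.5 CPM with DMSO at 72 h, and 31.0 CPM with paclitaxel and 29.2 CPM with DMSO at 24 h. The paclitaxel 72 h library was the high one, and the other 3 lay between 22.5 and 31.0 CPM. Its relative log2 ratio was 1.01 at 72 h (0.90 to 1.12) and 0.21 at 24 h (0.12 to 0.30), the intervals here and below being exact and 95%. SDHB, the iron-sulfur subunit on the matrix side, had 82.1 CPM with paclitaxel and 42.5 CPM with DMSO at 72 h, and 59.5 CPM with paclitaxel and 85.9 CPM with DMSO at 24 h. Both paclitaxel 72 h and DMSO 24 h were high for SDHB, and DMSO 72 h was the low library. Its relative log2 ratio was 0.68 at 72 h (0.60 to 0.76) and -0.40 at 24 h. The flavoprotein SDHA had 49.1 CPM with paclitaxel and 32.6 CPM with DMSO at 72 h, and 42.0 CPM with paclitaxel and 39.1 CPM with DMSO at 24 h, a ratio of 0.32 at 72 h. The other anchor, SDHC, had 105 CPM with paclitaxel and 86.8 CPM with DMSO at 72 h, and 93.6 CPM with paclitaxel and 112 CPM with DMSO at 24 h, a ratio of 0.0071. Neither reached the threshold. Among cells without a UMI of the proliferation genes MKI67 and TOP2A, the 72 h ratios were 0.99 for SDHD and 0.66 for SDHB. The paclitaxel 72 h library also held 51 cells with under 2% MT- UMIs, beside 11 in DMSO 72 h and 6 in each 24 h library, and with cells of at least 2000 genes and 2% to 15% MT- UMIs the ratios were 0.93 and 0.63.

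The other members called higher at 72 h lay closer to the threshold. NDUFAB1, the mitochondrial acyl carrier protein and a complex I subunit, had 97.0 CPM with paclitaxel and 53.4 CPM with DMSO at 72 h, and 103 CPM with paclitaxel and 107 CPM with DMSO at 24 h. ATP5B, the catalytic beta subunit of ATP synthase, had 398 CPM with paclitaxel and 219 CPM with DMSO at 72 h, and 383 CPM with paclitaxel and 334 CPM with DMSO at 24 h. In both genes DMSO 72 h was the low library and the other 3 lay well above it. Their relative ratios were 0.59 and 0.59, and over the processing alternatives that of ATP5B ranged from 0.47 to 0.86 and that of NDUFAB1 from 0.52 to 0.86, so that both fell under 1.5-fold in some of them. NDUFA12, an accessory subunit of the NADH-binding module and next in order at 0.57, was not called, but its ratio ranged from 0.51 to 0.84 over the same alternatives and passed 1.5-fold in some of them. Within complex V, the gamma subunit ATP5C1 had a ratio of 0.52 at 72 h, whereas the alpha subunit ATP5A1 and the delta subunit ATP5D were at -0.25 and -0.28. The F1 subunits thus lay on both sides of the median of all genes.

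UQCRHL, the copy of the complex III hinge protein gene UQCRH, had 47.6 CPM with paclitaxel and 69.8 CPM with DMSO at 72 h, and 33.0 CPM with paclitaxel and 45.1 CPM with DMSO at 24 h, and a relative ratio of -0.82 at 72 h (-0.91 to -0.74). The parent gene UQCRH had 699 CPM with paclitaxel and 769 CPM with DMSO at 72 h, and 713 CPM with paclitaxel and 1027 CPM with DMSO at 24 h and a ratio of -0.41. Reads of such a copy and its parent can be assigned to either, so the split between them is uncertain. The next lowest members at 72 h were ATP5L2, ATP5S, which encodes coupling factor B, and COX4I1, the common form of cytochrome c oxidase subunit 4, at -0.48, -0.43 and -0.42, none of them called.

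At 24 h few members differed between paclitaxel and DMSO. The ratios had a standard deviation of 0.346 across members at 72 h and 0.277 at 24 h, a difference that was not tested. Across all measured genes it was 0.487 at 72 h and 0.359 at 24 h, so the smaller spread at 24 h was not particular to the members. ATP5G2 was the only member called higher, and UQCR10, a small subunit of complex III, the only one called lower, beside 6.70% and 1.21% of all measured genes and 1.23% of the members each way. In cells without a UMI of MKI67 and TOP2A after thinning, the ratio of ATP5G2 at 24 h was 0.35, under the threshold. The members' median was 0.028, or -0.10 with no median subtracted, with quartiles of -0.15 and 0.23, and the ratios spanned 0.646-fold to 1.52-fold. UQCR10 had 382 CPM with paclitaxel and 303 CPM with DMSO at 72 h, and 402 CPM with paclitaxel and 679.5 CPM with DMSO at 24 h. DMSO 24 h was its high library and the other 3 lay within 303 to 402 CPM, which gave a relative ratio of -0.63 at 24 h (-0.65 to -0.61). The next lowest were UQCRQ of complex III at -0.48, the epsilon subunit ATP5E at -0.44, NDUFS6 of complex I at -0.44 and SDHB at -0.40. Below ATP5G2, the highest were ATP5A1 at 0.51, NDUFB5, a membrane-arm subunit of complex I, at 0.48, ATP5C1 at 0.47 and COX4I1 at 0.46. By complex, the medians at 24 h were 0.066 for I, 0.043 for II, -0.28 for III, -0.078 for IV and 0.057 for V, and the positive ones among them turn negative with no median subtracted.

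**Figure D2:**
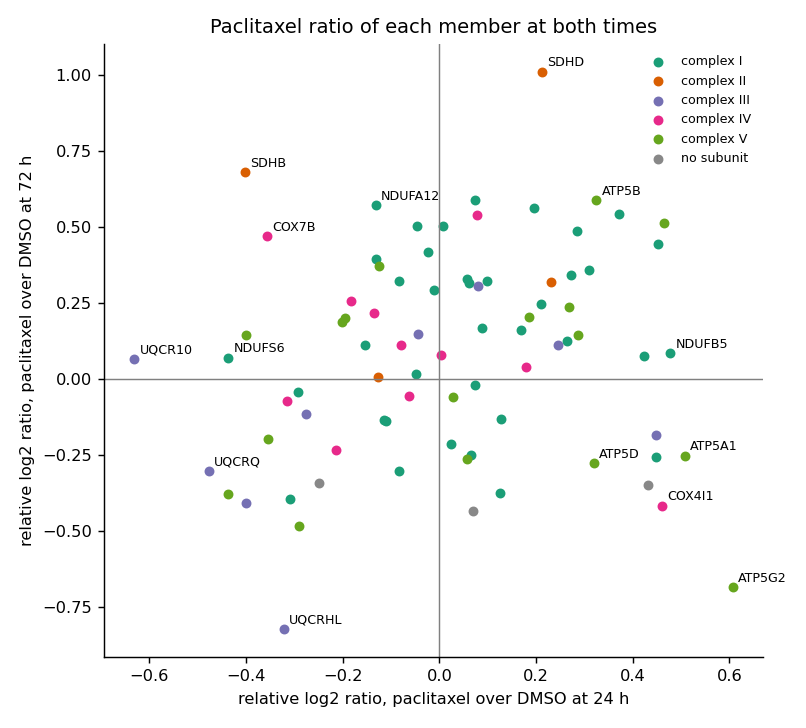
Relative log2 ratio of paclitaxel over DMSO for each of the 81 measured members, at 24 h (horizontal axis) and at 72 h (vertical axis), coloured by complex. SDHD and SDHB stand at the top, ATP5G2 farthest to the lower right with 0.61 at 24 h and -0.68 at 72 h.

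The drug ratio of several members differed between the times, as the plot of both ratios shows. Of the 81 members, 29 lay above the median of all genes at both times and 16 below it at both, while 21 were lower at 24 h and higher at 72 h and 15 the reverse. Over all measured genes the same 4 quadrants held 28.9%, 28.9%, 21.1% and 21.1%. The change of the ratio, 72 h minus 24 h, reached 1.5-fold upward in 5 members and downward in 7, beside 9.75% and 12.0% of all genes, and had a median of 0.071. It uses all 4 libraries and was not tested.

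ATP5G2, which encodes subunit c of the membrane rotor of ATP synthase, had the lowest change, at -1.29. Its level was 150.4 CPM with paclitaxel and 200.5 CPM with DMSO at 72 h, and 172 CPM with paclitaxel and 123 CPM with DMSO at 24 h. DMSO 72 h was the high library and DMSO 24 h the low one, with both paclitaxel libraries between them. ATP5G1 and ATP5G3 encode the same mature subunit c and followed another order. ATP5G1 had 256 CPM with paclitaxel and 164 CPM with DMSO at 72 h, and 286 CPM with paclitaxel and 341 CPM with DMSO at 24 h, and ATP5G3 had 443 CPM with paclitaxel and 319 CPM with DMSO at 72 h, and 534 CPM with paclitaxel and 513 CPM with DMSO at 24 h. Their changes were 0.50 and 0.019, and DMSO 72 h was the low library for both.

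The members next to ATP5G2 in the change were COX4I1, COX7A2L, ATP5A1 and NDUFA10. COX7A2L, a supercomplex factor related to the COX7A subunits, had 178 CPM with paclitaxel and 188 CPM with DMSO at 72 h, and 168 CPM with paclitaxel and 136 CPM with DMSO at 24 h, and a change of -0.78. ATP5A1, the alpha subunit, had 172 CPM with paclitaxel and 169 CPM with DMSO at 72 h, and 159.5 CPM with paclitaxel and 123 CPM with DMSO at 24 h, and a change of -0.76. COX4I1 had 512 CPM with paclitaxel and 566 CPM with DMSO at 72 h, and 594 CPM with paclitaxel and 472 CPM with DMSO at 24 h, and a change of -0.88. In COX4I1, COX7A2L and ATP5A1 the DMSO 24 h library was the lowest of the 4. NDUFA10, an accessory subunit in the membrane arm of complex I, ran from 39.8 to 49.7 CPM with a change of -0.71. At the other end SDHB, COX7B, SDHD, NDUFA12 and UQCR10 had changes of 1.08, 0.83, 0.80, 0.70 and 0.70. COX7B, subunit 7B of cytochrome c oxidase, had 429 CPM with paclitaxel and 257 CPM with DMSO at 72 h, and 322 CPM with paclitaxel and 451 CPM with DMSO at 24 h. Ribosomal protein genes had the signs of ATP5G2: their median was -0.75 at 72 h and 0.45 at 24 h, and the change was 1.5-fold or more downward in 72 of 82. Their part in the members' changes was not tested.

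Ribosomal protein messages typically begin with a C followed by a run of pyrimidines, so the starts of the 10 members with the lowest and highest change were read. Sequences are from RefSeq on GRCh38.p14, where 68 of the 84 members matched a promoter entry spanning 250 bases before to 50 after the start. Among those without one were ATP5B, ATP5D, ATP5EP2, ATP5G3, ATP5J2, ATP5L2, ATP5S, COX6C, NDUFB5, NDUFB9, NDUFC2, NDUFS5, SDHC, UQCRB and UQCRHL. Each window below is 30 bases, 5′ to 3′ on the gene's strand, and begins 10 bases before the annotated start. Capitals mark a C followed by at least 4 pyrimidines. The C and the first 4 of them had to lie among the 3 bases before the start and the 10 bases from it on. The 5 members with the lowest change come first.
ATP5G2: cgctgctccgCCCCTCTCTgtcttctctgc
COX4I1: cggccttgCTCTCTTCCggtcgcgggacac
COX7A2L: gaggcggggtCCTTCTCTggggcggtcgcg
ATP5A1: aggctctggcattgcaagcctcgcttcgtt
NDUFA10: cgtcgcgaccgcgtCCCCTTgggtccttga
SDHB: tggggctgacgtcaggagccaagatggcgg
COX7B: aagccattttgtttttcagctcacttcaag
SDHD: aagtggttccgggttggtggatgaccttga
NDUFA12: cccgggaggcggggccagcgaggcaagatg
UQCR10: cagcgcaggcgcggtggcgcgagttggact

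The windows lie at chr12:53676064-53676093, minus strand for ATP5G2, chr16:85799685-85799714, plus strand for COX4I1, chr2:42361198-42361227, minus strand for COX7A2L, chr18:46104208-46104237, minus strand for ATP5A1 and chr2:240025323-240025352, minus strand for NDUFA10. Those of the second 5 lie at chr1:17054013-17054042, minus strand for SDHB, chrX:77899458-77899487, plus strand for COX7B, chr11:112086863-112086892, plus strand for SDHD, chr12:95003678-95003707, minus strand for NDUFA12 and chr22:29767359-29767388, plus strand for UQCR10. The pyrimidine run was found in 4 of the first 5 members, ATP5A1 being without it, and in 0 of the second 5. It was present in 15 of all 68 members with an entry (22.1%), in 17.4% of 6789 measured genes and in 50 of 67 ribosomal protein genes (74.6%). The 10 members were picked by their change in these same data. Outside them the run was in ATP5E, ATP5H, ATP5I, ATP5J, ATP5L, ATP5O, COX7C, NDUFC1, NDUFS8, UQCRC2 and UQCRH. Their changes ran from -0.14 for ATP5O to 0.40 for ATP5I. Among all genes called higher at 72 h in DMSO 26.7% had the run, and among those called lower 10.2%. The genes called higher include 61 of the 82 ribosomal protein genes, and the share without them was not computed. A link between the run and the change was not tested. These are matches of letters in an annotated window, and the starts used in HCC1143 were not measured.

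Nuclear respiratory factor 1, which binds many respiratory chain promoters, recognises a GC-rich palindrome. Its core GCATGCGC, searched on both strands, was present in 13 of 68 member promoters (19.1%), beside 6.14% of the measured genes and 3.27% of all 27305 promoters. ATP5G2, SDHB and SDHD, which lie at opposite ends of the change, each had it. Their sites are shown in 30 bases each, with the motif or its reverse complement in capitals.
ATP5G2: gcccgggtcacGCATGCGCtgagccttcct
SDHB: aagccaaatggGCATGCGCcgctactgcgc
SDHD: cagctgtgtttGCGCATGCgcgacgggtgt

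The sites lie in chr12:53676105-53676134, minus strand, for ATP5G2, in chr1:17054214-17054243, minus strand, for SDHB, and in chr11:112086752-112086781, plus strand, for SDHD. The ETS-type motif CCGGAAG was in 19 members (27.9%), beside 21.6% of measured genes and 10.7% of all promoters. The YY1 motif AAGATGGCG was in 8 members (11.8%), beside 4.67% of measured genes and 1.85% of all promoters. Both strands were searched for each, and the motifs may overlap. SDHB was the only one of the 10 members above with a match to each of the NRF1, ETS and YY1 motifs, and its YY1 motif lies in the start window printed above.

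Over time in DMSO, 9 of 30 accessory subunits of complex I were lower at 72 h. So were 3 of 9 complex III genes and 3 of 9 genes of the Fo part of ATP synthase. ATP5G2, ATP5A1, COX7A2L, UQCRB and NDUFB5 were higher. The calls were 18 of 81 members lower (22.2%) and 6 higher (7.41%), beside 10.0% and 13.1% of all measured genes. The members' median was -0.23, with quartiles of -0.53 and 0.024. With no median subtracted, 39 members were called lower and 2 higher, beside 24.8% and 6.81% of all genes. Of the 81 members 70 had a lower CPM in DMSO 72 h than in DMSO 24 h. Ribosomal protein genes had a median of 0.91, with 61 of 82 called higher. Cells without a UMI of MKI67 and TOP2A made up 38.8% of the DMSO 72 h cells and 8.06% of the DMSO 24 h cells. Within the cells without those UMIs, 297 in DMSO 72 h and 87 in DMSO 24 h, the members' median was -0.31. Neither the part of the ribosomal genes nor that of the proliferating cells was tested.

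Complex I held 10 of the 18 members called lower, 9 of them accessory subunits, and its 37 subunits had a median of -0.31. NDUFS6, a zinc-binding subunit of the NADH module, had 306 CPM at 72 h and 689 CPM at 24 h in DMSO, and 388 CPM at 72 h and 466 CPM at 24 h in paclitaxel. NDUFB2, in the membrane arm, had 256 CPM at 72 h and 569 CPM at 24 h in DMSO, and 281 CPM at 72 h and 482 CPM at 24 h in paclitaxel. DMSO 24 h was the highest library for both genes. Their ratios over time were -0.89 (-0.92 to -0.87) and -0.87 (-0.90 to -0.84) in DMSO, and -0.38 and -0.90 in paclitaxel. The others called lower were NDUFA6, NDUFA8 and NDUFA12, with NDUFAB1, NDUFB6, NDUFB9, NDUFC2 and the iron-sulfur subunit NDUFS8, at -0.77 to -0.60. Of the 7 core subunits NDUFS8 alone was called, and the group had a median of -0.12. NDUFS1, the largest iron-sulfur subunit, and NDUFV1, which binds NADH, had ratios of 0.013 and -0.062. NDUFB5 was the one complex I gene called higher, with 75.4 CPM at 72 h and 56.2 CPM at 24 h in DMSO, and 96.4 CPM at 72 h and 71.6 CPM at 24 h in paclitaxel, a ratio of 0.70 in DMSO.

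In complex III, UQCR10, UQCRQ and the core protein UQCRC1 were called lower, and UQCRB and the copy UQCRHL higher. UQCRQ, a small subunit, had 273 CPM at 72 h and 598 CPM at 24 h in DMSO, and 267 CPM at 72 h and 393 CPM at 24 h in paclitaxel. DMSO 24 h was its highest library and both 72 h libraries were the lowest, with ratios of -0.85 in DMSO and -0.68 in paclitaxel. UQCRB, the ubiquinone-binding subunit, had 362 CPM at 72 h and 263 CPM at 24 h in DMSO, and 385 CPM at 72 h and 328 CPM at 24 h in paclitaxel. For UQCRB the order was turned, with DMSO 24 h lowest, and its ratio in DMSO was 0.74 (0.71 to 0.77). The core proteins UQCRC1 and UQCRC2, which are related to mitochondrial processing peptidases, had ratios of -0.62 and 0.44, the second under the threshold. UQCR10, with the levels given above, was at -0.89.

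**Figure D3:**
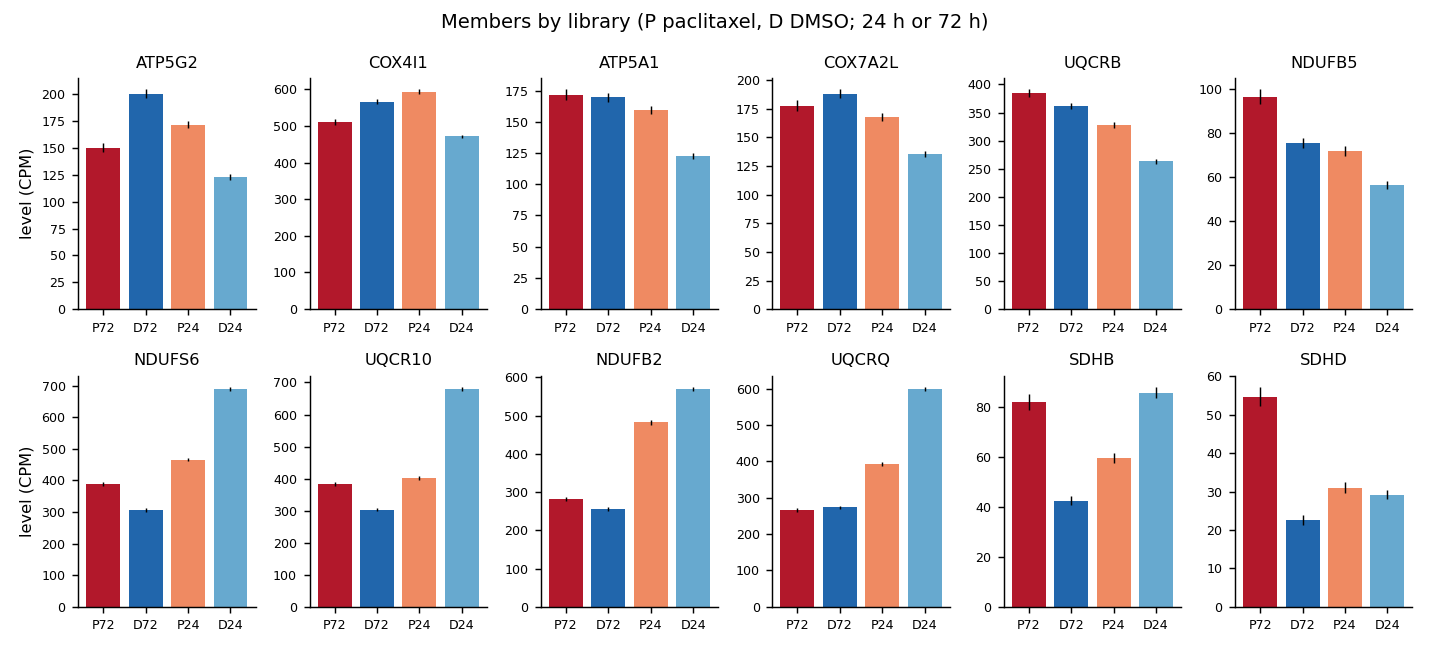
CPM of 12 members in the 4 libraries (P72, D72, P24 and D24 for paclitaxel and DMSO at 72 h and 24 h), with exact 95% Poisson intervals and each axis from 0. The upper row holds members higher at 72 h than at 24 h in DMSO, and the lower row members lower at 72 h there, among which SDHD is highest in P72.

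In complex IV NDUFA4 was the only one of 11 measured genes called lower, and none was called higher. NDUFA4, long assigned to complex I and since found in complex IV, had 189 CPM at 72 h and 362 CPM at 24 h in DMSO, and 264 CPM at 72 h and 302 CPM at 24 h in paclitaxel, a ratio of -0.66 in DMSO. The other complex IV genes lay between -0.53 for COX7B and 0.54 for COX4I1, with a median of -0.32 over the 11. In complex V the coupling factor 6 gene ATP5J, ATP5G1 and ATP5J2, which encodes subunit f, were called lower. ATP5J had 185 CPM at 72 h and 386 CPM at 24 h in DMSO, and 254 CPM at 72 h and 307 CPM at 24 h in paclitaxel, a ratio of -0.78 in DMSO. ATP5A1 and ATP5G2 were called higher, at 0.74 (0.70 to 0.79) and 0.98 (0.94 to 1.02). The 9 subunits grouped as Fo, among them subunit d and coupling factor 6, had a median of -0.46. The 5 of the catalytic part F1 had one of 0.20, which turns negative with no median subtracted. The stalk subunit ATP5O was counted in neither group. Complex II had 1 call, SDHB at -0.74.

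Over time in paclitaxel, NDUFB2 and UQCRQ were lower at 72 h and SDHD was higher, at -0.90 (-0.93 to -0.86), -0.68 (-0.71 to -0.64) and 0.70 (0.61 to 0.80). These were the only calls among 81 members, beside 4.78% of all genes lower and 7.21% higher. The members' median was -0.16, with quartiles of -0.31 and 0.011. After NDUFB2 and UQCRQ the lowest were the complex I accessory subunits NDUFA11, NDUFA8 and NDUFB7, at -0.58, -0.54 and -0.48. After SDHD the highest were UQCRHL, SDHB, NDUFB5 and UQCRC2, at 0.41, 0.35, 0.31 and 0.30. The ratios over time in DMSO and in paclitaxel had standard deviations of 0.448 and 0.263 across members, and the difference was not tested. Across all measured genes they were 0.537 and 0.403, also wider in DMSO.

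**Figure D4:**
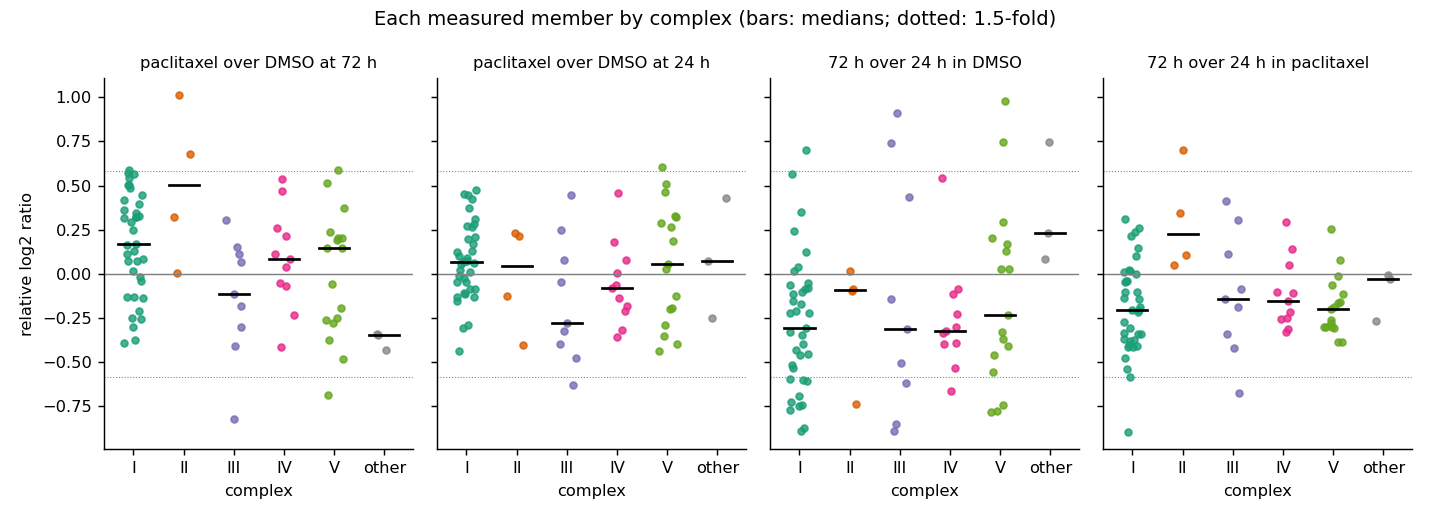
Relative log2 ratio of each measured member (points) by complex, in 4 panels for paclitaxel over DMSO at 72 h and at 24 h and for 72 h over 24 h in DMSO and in paclitaxel; bars are medians and dotted lines 1.5-fold. Most points lie within 1.5-fold, and the panel of time in DMSO holds the most outside it, 18 below and 6 above.

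Set against the DMSO cells at 24 h, the paclitaxel 72 h library gave a different picture from the same library against DMSO 72 h. The members' median was then -0.16, with 4 called higher and 11 lower, beside 15.2% and 12.2% of all measured genes. SDHD (0.89), NDUFB5 (0.76) and ATP5C1 (0.69) were among the higher ones, and UQCRQ (-1.18) and NDUFB2 (-1.03) the lowest. SDHB stood at -0.080 in that comparison. These 2 comparisons share the paclitaxel library and differ in time as well as in drug.

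The mitochondrially encoded partners did not follow the nuclear genes in every complex. All 13 MT- subunit messages were measured. Over complexes I, III, IV and V together, nuclear UMIs per MT- UMI were 0.311, 0.249, 0.322 and 0.338 in paclitaxel 72 h, DMSO 72 h, paclitaxel 24 h and DMSO 24 h. In the same order the ratio was 0.288, 0.233, 0.307 and 0.281 for complex I, 0.923, 0.720, 0.852 and 1.04 for complex III, 0.157, 0.115, 0.152 and 0.164 for complex IV and 0.893, 0.792, 1.01 and 1.04 for complex V. DMSO 72 h had the lowest ratio in each. At 72 h the MT- genes had a median relative ratio of -0.24 for paclitaxel over DMSO, with 2 of 13 called higher and 2 lower, beside 10.9% and 7.67% of all measured genes. In DMSO over time their median was 0.046 with 0 called, beside 13.1% higher and 10.0% lower of all genes, and both medians change sign with no median subtracted. MT-ATP8 and MT-ATP6 overlap, as do MT-ND4L and MT-ND4, so counts within these pairs are uncertain. Among tissue isoforms, the testis forms COX6B2 and COX8C and the hypoxia-induced relative NDUFA4L2 lay at the levels given above. COX4I2, COX6A2, COX7A1 and COX7B2 match the naming rule but were not among the listed gene symbols, so no level is given.

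Among genes that build or feed the complexes, assembly factors and import genes were called lower mainly over time in DMSO. The shares of all measured genes called higher and lower, against which the counts are read, were 10.9% and 7.67% for paclitaxel over DMSO at 72 h, 6.70% and 1.21% at 24 h, 13.1% and 10.0% over time in DMSO, and 7.21% and 4.78% over time in paclitaxel. Of 45 measured assembly factors, paclitaxel had 5 called higher (11.1%, near the share of all genes) and 0 lower at 72 h, with 0 either way at 24 h. Over time 14 were called lower (31.1%) and 0 higher in DMSO, and 2 lower and 1 higher in paclitaxel. NDUFAF4, an assembly factor of complex I, had 26.3 CPM with paclitaxel and 9.04 CPM with DMSO at 72 h, and 22.1 CPM with paclitaxel and 19.0 CPM with DMSO at 24 h, a relative ratio of 1.27 at 72 h. TMEM70, which aids ATP synthase assembly, had 55.8 CPM with paclitaxel and 21.4 CPM with DMSO at 72 h, and 43.4 CPM with paclitaxel and 43.1 CPM with DMSO at 24 h, a ratio of 1.11. In both, DMSO 72 h was the low library. Of 13 citric acid cycle genes 3 were called higher at 72 h (23.1%): IDH3B of isocitrate dehydrogenase, SUCLA2 of succinyl-CoA ligase and the fumarase gene FH, at 0.64, 0.69 and 0.75. Of 17 mitochondrial import genes 10 were called lower over time in DMSO (58.8%), TOMM40, the channel of the outer membrane, the most at -1.24, and 1, the receptor TOMM20, higher at 0.89. Import genes had 2 higher and 1 lower calls with paclitaxel at 72 h, 1 lower at 24 h and 4 lower over time in paclitaxel. The only other citric acid cycle call was IDH3A, lower over time in DMSO at -0.74. Of 5 further subunits and carriers outside the naming rule, CYC1, CYCS, USMG5, C14orf2 and ATPIF1, CYCS and USMG5 were called lower over time in DMSO. CYCS, cytochrome c, was at 0.68 for paclitaxel at 72 h and -1.01 over time in DMSO. USMG5, a small subunit of ATP synthase, was at -0.63 over time in DMSO. Of 8 measured regulators of mitochondrial biogenesis, the mitochondrial RNA polymerase POLRMT (0.59) and its initiation factor TFB2M (1.00) were called higher at 72 h, 2 of 8. In the same list TFB1M was called higher with paclitaxel at 24 h, at 0.62, and TFAM, which packages mitochondrial DNA, lower over time in DMSO, at -0.68.

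The library differences were spread over the cells. Each cell with at least 20000 UMIs was thinned to that number, which left out 39, 17, 26 and 21 shallower cells of paclitaxel 72 h, DMSO 72 h, paclitaxel 24 h and DMSO 24 h. The median share of the members was then 1.94% in paclitaxel 72 h cells and 1.68% in DMSO 72 h cells, and 2.04% in paclitaxel 24 h cells and 2.48% in DMSO 24 h cells. Without thinning the medians were 1.94%, 1.68%, 2.04% and 2.47%. Below the DMSO 24 h median lay 81.1% of paclitaxel 72 h cells, 96.9% of DMSO 72 h cells, 73.3% of paclitaxel 24 h cells and 49.7% of DMSO 24 h cells. As a share of all UMIs, nearly every DMSO 72 h cell was thus on the low side, whereas the paclitaxel cells reached both sides. Without ribosomal protein and MT- UMIs in the totals, medians were 3.06% in paclitaxel 72 h, 3.20% in DMSO 72 h and 3.87% in DMSO 24 h. The upper quartiles were then 3.56% in paclitaxel 72 h and in DMSO 72 h, and 3.99% in paclitaxel 24 h. That contrast between the 72 h libraries was thus not seen on those totals.

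**Figure D5:**
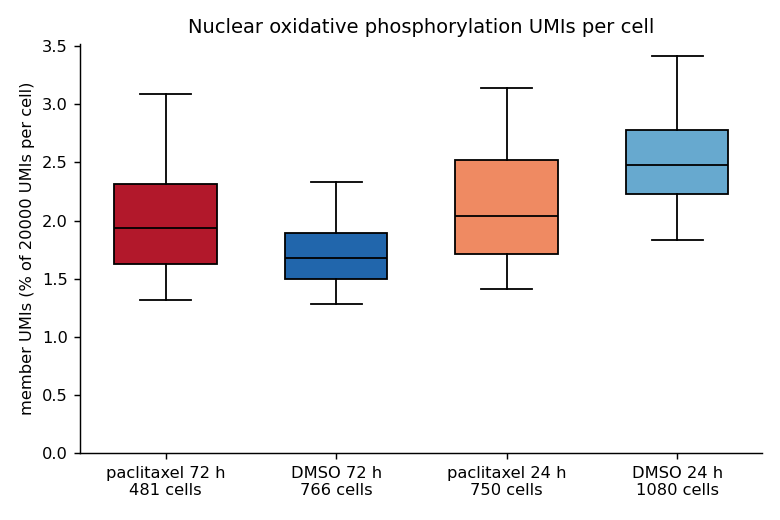
Share of a cell's 20000 thinned UMIs that came from the 84 members (vertical axis, percent), for the cells of each library. The middle of the distribution is lowest in DMSO 72 h, with a median of 1.68%, and highest in DMSO 24 h, with 2.48%.

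The spread between cells was wider in each paclitaxel library than in the DMSO library of the same time. Interquartile ranges were 326 to 463 member UMIs per 20000 in paclitaxel 72 h and 299 to 378 in DMSO 72 h, and 342 to 504 in paclitaxel 24 h and 445 to 555 in DMSO 24 h. Standard deviations were 111, 66.4, 108 and 93.8 UMIs in that order of libraries, against 20.2, 18.6, 20.7 and 22.5 from counting alone. Within a library, complexes I and V varied together, with Spearman correlations across cells of 0.62, 0.59, 0.82 and 0.63 over 481, 766, 750 and 1080 cells. Such points share their library and the fixed total of UMIs, and the members' share ran against that of the ribosomal protein genes, at -0.31, -0.42, -0.65 and -0.25. With ribosomal protein and MT- UMIs taken out of each cell's total, those correlations were 0.12, 0.053, -0.23 and 0.20, and the median shares 3.06%, 3.20%, 3.55% and 3.87%. Cells with a UMI of MKI67 or TOP2A after thinning had medians of 393, 331, 426 and 498 member UMIs, and cells without had 385, 338, 383 and 472. These are shares of all UMIs, and DMSO 24 h held only 87 cells without such a UMI. The part of proliferating cells in the library differences was not tested. Cells without such a UMI made up 53.8%, 38.8%, 29.2% and 8.06% of the libraries.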

How the data were processed

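HCC1143 cells of 4 groups were profiled as 1 10x Chromium library each. The deposited values are raw UMI counts per gene symbol and cell barcode, and per the submitters' processing notes Cell Ranger 2.0 and GRCh38 were used. Not given in the sources used here is how cells and genes were selected. The rarest gene of a deposited table had UMIs in 6 to 12 cells, depending on the library. Counts are not stated to use strand or to resolve near-identical copies.

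Barcodes with at least 500 genes and under 20% MT- UMIs were kept (3180 of 3194). Per library, the UMIs of all kept cells were added up and expressed as CPM, with exact 95% Poisson intervals. Ratios of 2 libraries carry exact intervals for 2 Poisson counts, from which the median log2 ratio of all 8214 measured genes was subtracted. A call needs 1.5-fold and an interval that excludes no difference. Totals were 34850724 to 72024235 UMIs, so a count of 0 would allow at most 0.0417 to 0.0861 CPM (3 counts), and the lowest count of a measured member was 426. Intervals cover counting error only. The calculation was run on simulated Poisson counts with known fold changes. These held no shift of the ribosomal genes as a set and no spread between cultures, so they do not bear on either.

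Named were the 5 highest and 5 lowest members of each comparison and of the change, isoform pairs, SDHA to SDHD, NDUFS1, NDUFV1, UQCRC1, UQCRC2, ATP5A1 and ATP5B; other names are calls or list members. Members and lists were chosen with earlier results of these data known. Per-cell shares used cells thinned to 20000 UMIs; doublets were marked with Scrublet (3, 5, 4 and 7 cells in paclitaxel 72 h, DMSO 72 h, paclitaxel 24 h and DMSO 24 h, so few that the caller may not have worked) and left in. TMM factors came from edgeR 4.0.16 and size factors from DESeq2 1.42.0, both as alternative scalings only, in R 4.3.3. Other tools were Python 3.11.15, numpy 2.4.6, scipy 1.17.1, pandas 2.3.3, scanpy 1.11.5 and matplotlib 3.10.9. Other alternatives were the cell filter, the gene minimum, the fold threshold, subsets of cells and no thinning.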

Additional observations from a re-analysis of the deposited data

Results flagged for a closer look

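ATP5G2, the subunit c gene, was higher with paclitaxel at 24 h and lower at 72 h. Its relative log2 ratios were -0.68 at 72 h and 0.61 at 24 h, a change of -1.29, and the difference was not tested because each group is 1 library. Over the alternatives the ratio ranged from -0.85 to -0.42 at 72 h and from 0.35 to 0.63 at 24 h. In cells without a UMI of MKI67 and TOP2A after thinning it was -0.85 at 72 h and 0.35 at 24 h, the second under 1.5-fold.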

How the results depend on the processing

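Medians and counts are those of the members, counts as higher and lower. The share of all measured genes called also depends on the setting. For alternatives it is given above only with no median subtracted, at 72 h and over time in DMSO, and against DMSO 24 h. The other counts here lack that share and are not read as results about the members. With no median subtracted, paclitaxel over DMSO had a median of 0.38 with 24 and 0 at 72 h and of -0.10 with 0 and 2 at 24 h. Time in DMSO then had -0.51 with 2 and 39, time in paclitaxel -0.047 with 1 lower, and the change 0.47 with 32 and 1; the shift is the median of all genes given above. Against DMSO 24 h the paclitaxel 72 h median was -0.16, of the other sign, with 11 lower. In cells of 30000 to 100000 UMIs the paclitaxel median was 0.057 with 2 higher at 72 h and -0.015 with 2 lower at 24 h. In cells with no MKI67 and TOP2A UMI after thinning it was 0.052 at 72 h and -0.14 with 0 and 5 at 24 h. Time in DMSO was then at -0.31, and the change at 0.14 with 13 higher. With no gene minimum, 0 were higher at 24 h, time in DMSO had -0.36 and time in paclitaxel -0.27 with 4 and 5. At a minimum of 50 CPM the 72 h counts were 1 and 1, and time in paclitaxel had -0.11 with 0 higher. With totals without ribosomal and MT- genes, 2 were higher at 72 h and 0 at 24 h. At the lower fold threshold, where more calls follow by construction, counts were 22 and 11 at 72 h, 12 and 10 at 24 h, 10 and 37 for time in DMSO and 3 and 20 for time in paclitaxel. The cause of the other shifts was not tested. The remaining 164 values, among them those without barcodes found in 2 libraries, an alternative chosen after seeing the data, moved by less than counting error or within 1.5 times. With at least 426 UMIs for a measured member, counting error is small beside the 1.5-fold threshold, and the spread between cultures is unknown because each group is 1 library. No paired analysis was possible because the groups compared have 1 library each and share no second replicate number; a fit of drug and time as additive terms over the 4 libraries was not run.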
